A study of Mus musculus with 12 samples.

Results

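The 88 probes described here measured transcripts of 74 genes that stood lower at 12 h of doxycycline (dox) than at 0, 8 and 24 h in mouse embryonic stem (ES) cells carrying a dox-inducible Tcf15-E47 transgene. They were chosen from the deposited log2 expression values, which cover 38561 probes on 12 arrays. A candidate had a mean of at least 7.0 log2 units over the 12 arrays and 1 gene name, which left 8660 probes of 6351 genes, out of 18524 genes named by any probe of 1 gene. The score of a candidate was its mean at 12 h minus the lowest of its means at 0, 8 and 24 h, so a negative score is a low point at 12 h against every other time in Tcf15-E47 cells. The 100 lowest scores were taken, and 12 of these probes were left out because their genes belonged to named exclusions, mainly chromatin regulators of the Chd, Kmt2, Setd and Arid families. Of the 74 genes, 13 were represented by at least 2 of the 88 probes, and Nipbl was represented by 3. Since the means at all 4 times chose the probes, every value of the low point itself is a description, and no test was run on it.

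Scores of the 88 probes ran between -0.62 and -0.27, with a median of -0.34. The 3 probes just inside the threshold were those of Supt6, Grina and Hp1bp3, with scores of -0.275, -0.275 and -0.274. The 3 just outside it were those of Prrc2a, Fcho2 and Ttc3, with -0.272, -0.272 and -0.271. The threshold thus marks no gap in the scores. Of 6 genes given as typical of the pattern, Dst, Akap9, Ahnak and Myh9 were among the 74. Golgb1, which encodes the Golgi tether giantin, missed the threshold with a score of -0.26 at rank 111, and the nuclear noncoding RNA Neat1 had a mean of 6.98 log2 units, under the minimum of 7.0.

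The arrays covered 6 groups with 2 arrays each. Tcf15-E47 cells are E14tg2a ES cells (strain 129/P2) in which dox switches on Tcf15 joined to E47. They were sampled with 0, 8, 12 and 24 h of dox at 1 µg/mL. Parental control ES cells of the same strain were sampled with 8 h and with 0 h of dox. All groups grew in GMEM with LIF and fetal calf serum. No parental array at 12 or 24 h was analysed here, so an effect of the transgene at 12 h cannot be told apart from an effect of dox or of time in culture. The labels number the replicates but do not say that they were separate cultures, so the p-values below measure only the spread between these samples, which may be technical.

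Tcf15 and E47 are basic helix-loop-helix transcription factors that bind DNA as dimers at E-boxes, whose core is written CANNTG. Tcf15 is known in ES cells for marking cells primed to leave the naive state, and E47 is a widely expressed partner of such factors. The genes described here include the plakin Dst and nonmuscle myosins of the cytoskeleton, subunits and the loader of the cohesin ring that folds chromosomes, and factors of RNA surveillance. Transcribing a long gene takes longer than transcribing a short one, and a long transcript offers more places for processing and for cleavage.

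The promoters of the 4 typical genes are shown because E-boxes are the sites Tcf15-E47 could occupy there. Each sequence runs 5′ to 3′ along the gene's own strand, covers 250 bases before and 50 bases after a listed start of the RefSeq annotation of GRCm38.p6, and has each CANNTG match in capitals. They lie at chr1:34011345-34011644 on the plus strand (Dst, the first of 2 listed starts), chr5:3927936-3928235 on the plus strand (Akap9), chr19:8989034-8989333 on the plus strand (Ahnak) and chr15:77842126-77842425 on the minus strand (Myh9).
Dst: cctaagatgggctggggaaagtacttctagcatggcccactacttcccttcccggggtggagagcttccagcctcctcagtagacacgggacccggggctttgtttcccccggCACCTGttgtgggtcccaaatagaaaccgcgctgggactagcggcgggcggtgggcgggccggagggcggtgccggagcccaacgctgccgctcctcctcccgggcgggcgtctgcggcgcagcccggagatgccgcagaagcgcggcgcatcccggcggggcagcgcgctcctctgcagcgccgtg
Akap9: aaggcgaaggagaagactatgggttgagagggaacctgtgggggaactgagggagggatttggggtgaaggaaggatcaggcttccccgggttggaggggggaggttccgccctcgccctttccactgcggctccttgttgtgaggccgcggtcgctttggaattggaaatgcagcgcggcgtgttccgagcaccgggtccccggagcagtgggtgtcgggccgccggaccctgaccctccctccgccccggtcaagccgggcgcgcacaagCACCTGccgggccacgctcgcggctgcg
Ahnak: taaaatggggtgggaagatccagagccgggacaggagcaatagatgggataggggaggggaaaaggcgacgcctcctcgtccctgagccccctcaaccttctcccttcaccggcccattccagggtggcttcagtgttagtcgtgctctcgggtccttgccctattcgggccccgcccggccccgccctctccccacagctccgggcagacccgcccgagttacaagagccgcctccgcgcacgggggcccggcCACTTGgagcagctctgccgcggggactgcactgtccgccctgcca
Myh9: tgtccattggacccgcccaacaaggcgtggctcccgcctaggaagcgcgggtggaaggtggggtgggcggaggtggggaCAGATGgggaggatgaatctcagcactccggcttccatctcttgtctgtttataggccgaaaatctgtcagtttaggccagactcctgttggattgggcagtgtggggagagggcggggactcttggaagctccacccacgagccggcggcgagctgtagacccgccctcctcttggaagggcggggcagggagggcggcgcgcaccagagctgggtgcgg
Each of the 4 held 1 match, and their GC content was 70.3% for Dst, 67.7% for Akap9, 67.3% for Ahnak and 64.7% for Myh9. Promoters were listed for 66 of the 74 genes, 84 in all. CANNTG, which reads as the same pattern on both strands, was found in 49 of these 84 promoters (58.3%), against 62.1% of 6698 promoters of candidate genes and 72.3% of all 32851 listed promoters. A narrower set, contained in CANNTG and made of CAGCTG together with either strand of CAGGTG (read on the opposite strand as CACCTG), was found in 27.4% of the 84, 28.6% of the candidates' promoters and 32.9% of all. Median GC content was 62.5% in the 84 promoters, 61.3% in those of candidates and 52.7% in all. The shares with E-box letters were near those of candidates, which says nothing about binding.

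All 88 probes were detected above background (detection p under 0.01) on all 12 arrays. The share of all probes detected was 30.7 and 33.0% on the 12 h arrays and 30.8 to 34.7% on the other 10. The median of every array was 6.57 log2 units, as fixed by the quantile normalization of the deposited values. The ES cell markers Pou5f1, Sox2, Nanog, Esrrb, Zfp42, Utf1 and Dppa5a were detected on all 12 arrays, 7 of the 7 found of 8 listed. Their summed level, in log2 units, was 15.06 and 15.13 at 12 h and 15.11 to 15.22 on the other arrays. The brightest marker, Dppa5a, weighs most in this sum, with means of 14.4 at 0 h and 14.5 at 12 h in Tcf15-E47 cells. Over the same times the mean of Esrrb went from 11.99 to 11.67, Pou5f1 from 12.16 to 11.88 and Sox2 from 8.16 to 7.94. Zfp42 went from 10.50 to 10.43, and Utf1 rose from 10.71 to 11.17. Nanog measured 11.04 and 11.09 at 0 h, 10.62 and 10.65 at 8 h, 9.93 and 10.05 at 12 h and 10.15 and 10.11 at 24 h. It was still low at 24 h, and its part in the results below was not tested. The second parental array at 8 h stood apart. Its smooth muscle actin Acta2 was 11.07 log2 units, against 6.58 to 6.91 on the other 11 arrays, and its 4 smooth muscle markers summed to 11.30 against 8.56 to 8.74. Summed fibroblast markers, 7 genes, were 10.38 there and 9.93 to 10.09 elsewhere. Results on parental cells at 8 h are given below with and without this array.

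The low point at 12 h was shallow, and it was visible in the median of the 88 probes on both arrays. The median level of the 88 was 8.96 and 8.95 log2 units on the arrays at 0 h, 8.91 and 8.90 at 8 h, 8.43 and 8.54 at 12 h, and 8.85 and 8.89 at 24 h. In parental cells it was 8.92 and 8.95 at 8 h and 8.92 and 8.83 at 0 h. Both 12 h arrays were below the other 10. The median of all candidates stayed between 8.18 and 8.19 on every array, which the quantile normalization of the deposited values largely fixes. With median scaling in its place, candidates had a median difference of 0.10 at 12 h from 0 h. Relative to 0 h, the 88 had a median difference of -0.04 at 8 h, -0.48 at 12 h and -0.11 at 24 h, each on the log2 scale, where candidates had 0.00, 0.01 and 0.01. A median of -0.48 is a level 1.40-fold lower at 12 h than at 0 h. A probe of Ahnak was the only member at least 2-fold lower. The smallest 12 h difference was -0.27. At 8 h, 66 of the 88 were within 0.1 of their level at 0 h and 2 were more than 0.2 below it, against 81.5% and 0.935% of candidates. Below 0 at 8 h were 64 of the 88 and 47.7% of candidates, or 54 of the 88 and 41.1% with median scaling. In bulk RNA, fewer cells with a transcript and less of it per cell cannot be told apart.

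**Figure D1:**
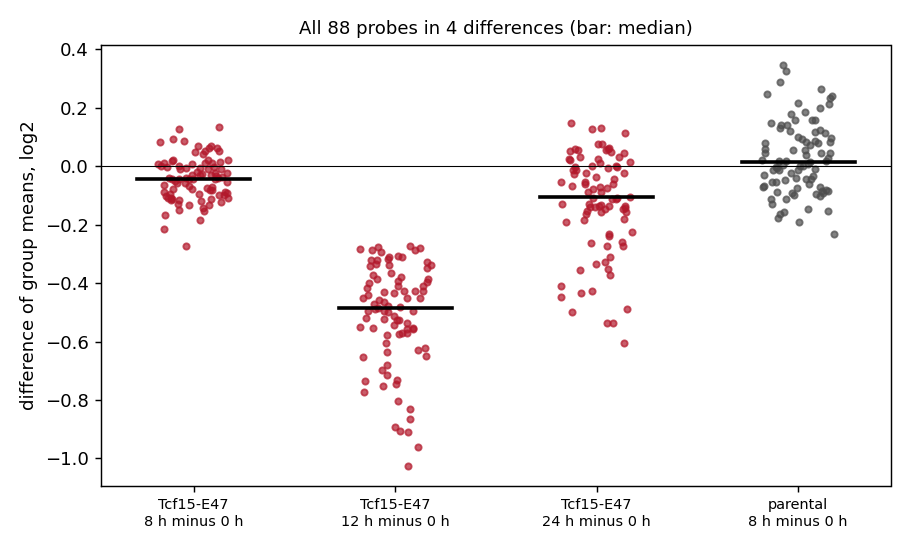
Each point is 1 of the 88 probes, the y axis is the difference between 2 group means on the log2 scale, and the bar is the median. The 88 probes have medians of -0.04 at 8 h in Tcf15-E47 cells and 0.02 in parental cells, and lie between -1.03 and -0.27 at 12 h, where the rule placed them, and between -0.60 and 0.15 at 24 h.

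Cytoskeletal, scaffold and adhesion genes were the largest class, with 22 genes and 28 probes. Their median difference was -0.50 at 12 h and -0.14 at 24 h. Myh9, the heavy chain of nonmuscle myosin IIA, had the lowest score of all candidates. It measured 8.89 and 8.72 at 0 h, 8.66 and 8.51 at 8 h, 7.92 and 8.03 at 12 h and 8.76 and 8.54 at 24 h in Tcf15-E47 cells, and 9.02 and 8.97 at 8 h and 8.79 and 8.83 at 0 h in parental cells. Myh9 was already -0.22 from its 0 h level at 8 h, was 1.78-fold lower at 12 h than at 0 h, and its 24 h arrays overlapped those of 8 h. Myh10, the IIB heavy chain, measured 7.97 and 7.95 at 0 h, 7.85 and 7.94 at 8 h, 7.38 and 7.46 at 12 h and 7.75 and 7.96 at 24 h, with its lowest arrays at the same time.

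Ahnak, a giant scaffold protein beneath the plasma membrane, had the largest difference of the 88. Its probe with the lower score measured 10.03 and 10.14 at 0 h, 9.96 and 9.94 at 8 h, 8.94 and 9.18 at 12 h and 9.48 and 9.69 at 24 h, and 9.78 and 9.78 at 8 h and 9.88 and 9.76 at 0 h in parental cells. The 12 h level was 2.04-fold lower than that at 0 h. The 24 h arrays stood between those of 12 h and all others, parental cells included. A second probe of Ahnak followed it, with -0.80 at 12 h and -0.37 at 24 h.

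Akap9 anchors protein kinase A at the centrosome and Golgi. Its probe with the lowest score measured 8.74 and 8.60 at 0 h, 8.72 and 8.54 at 8 h, 7.81 and 7.75 at 12 h and 8.14 and 8.30 at 24 h, and 8.69 and 8.48 at 8 h and 8.65 and 8.60 at 0 h in parental cells. Its second probe gave nearly the same differences, -0.91 at 12 h and -0.54 at 24 h against -0.89 and -0.45. At 24 h both Akap9 probes remained below every array of 0 and 8 h. Akap12, another anchor for protein kinase A, measured 10.95 and 11.11 at 0 h, 10.93 and 11.07 at 8 h, 10.01 and 10.22 at 12 h and 10.53 and 10.86 at 24 h. It was 1.88-fold lower at 12 h than at 0 h.

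Dst encodes dystonin, a plakin that links actin, microtubules and intermediate filaments. It measured 7.89 and 7.62 at 0 h, 7.73 and 7.53 at 8 h, 6.97 and 7.04 at 12 h and 7.39 and 7.25 at 24 h, and 7.78 and 7.70 at 8 h and 7.50 and 7.33 at 0 h in parental cells. Its 12 h arrays were its lowest of all, and its 24 h arrays were also below those of 0 and 8 h. Dync1h1, the heavy chain of the dynein motor, measured 8.69 and 8.97 at 0 h, 8.82 and 8.82 at 8 h, 8.12 and 8.13 at 12 h and 8.51 and 8.51 at 24 h, and its pair of 12 h arrays differed by 0.011. Map1b, which binds microtubules, was represented by 2 probes with differences of -0.57 and -0.35 at 12 h. At 24 h these were 0.02 and 0.08, both above 0.

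Junction and actin-binding members made up much of the rest of this class. Afdn, which ties nectins to actin, had 12 h differences of -0.65 and -0.48 in its 2 probes. Lima1, an actin cross-linker, had -0.47 and -0.41, and Fat1, an atypical cadherin, had -0.39. Swap70, an actin-binding regulator of Rac signalling, stood above its 0 h level at 24 h in both of its member probes, by 0.11 and 0.08. Its first probe measured 8.59 and 8.59 at 0 h, 8.51 and 8.55 at 8 h, 8.17 and 8.26 at 12 h and 8.72 and 8.68 at 24 h. Another candidate probe of Swap70, not a member, had differences of only -0.05 at 12 h and 0.04 at 24 h. The microtubule cross-linker Mtcl1 likewise stood above 0 h at 24 h, by 0.13.

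**Figure D2:**
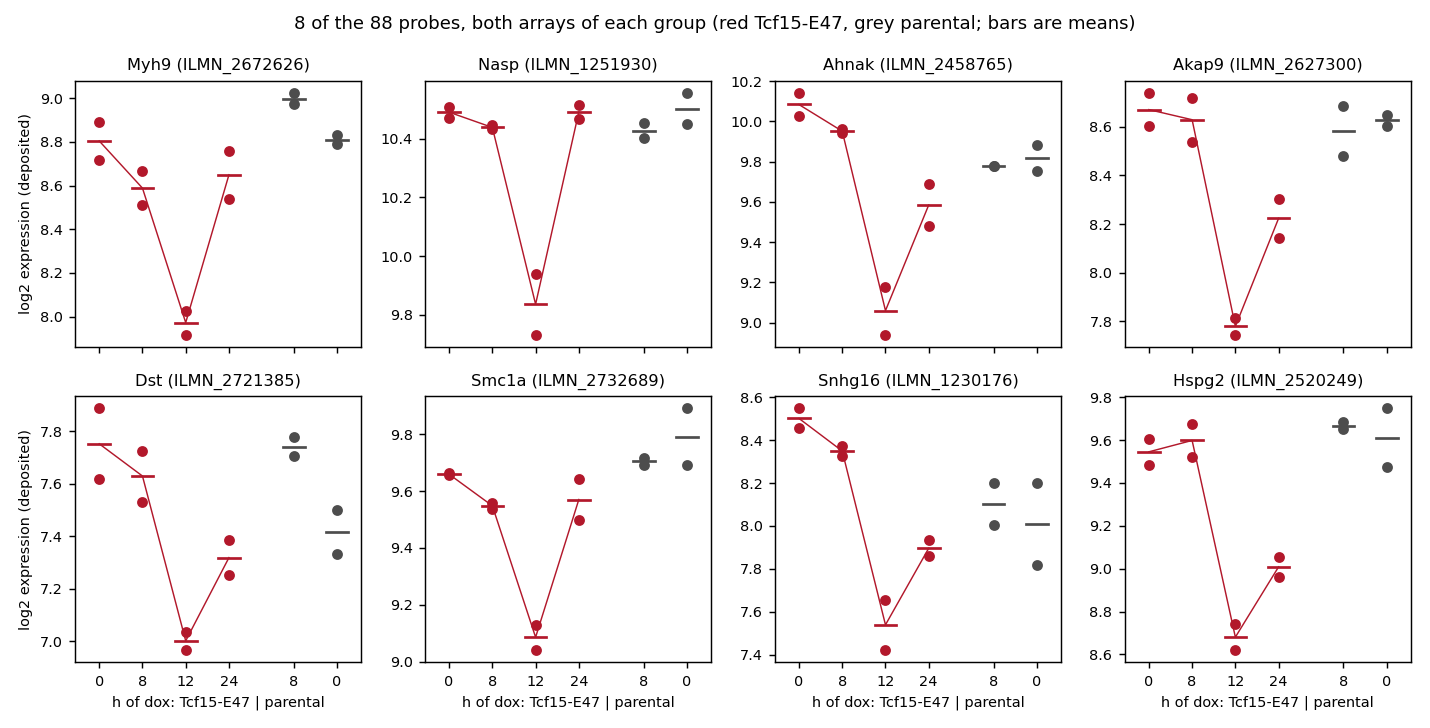
Each panel shows 1 probe, with log2 expression as deposited on the y axis and h of dox on the x axis, Tcf15-E47 cells in red at 0, 8, 12 and 24 h and parental cells in grey at 8 and 0 h. Points are the 2 arrays of a group and bars their mean. Nasp, Myh9 and Smc1a came back to or near the 8 h level at 24 h, whereas Hspg2, Snhg16, Akap9 and Dst stayed below it.

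Chromatin and transcription factors formed the second class, with 19 genes and 24 probes. Their median difference was -0.44 at 12 h and -0.03 at 24 h. Nasp, a histone chaperone, had the second lowest score. It measured 10.51 and 10.47 at 0 h, 10.45 and 10.43 at 8 h, 9.73 and 9.94 at 12 h and 10.52 and 10.47 at 24 h, and 10.40 and 10.45 at 8 h and 10.45 and 10.55 at 0 h in parental cells. All 10 arrays outside 12 h lay within 10.40 to 10.55. Its 2 arrays at 12 h were apart from each other by more than the arrays at any other time, yet both lay below the rest.

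Cohesin, the ring that holds sister chromatids and forms chromosome loops, was represented by Smc1a, Smc3 and the loader Nipbl. The Smc1a probe with the lowest score measured 9.65 and 9.66 at 0 h, 9.56 and 9.54 at 8 h, 9.04 and 9.13 at 12 h and 9.64 and 9.50 at 24 h, and 9.69 and 9.72 at 8 h and 9.69 and 9.89 at 0 h in parental cells. The other Smc1a member probe had a difference of -0.58 at 12 h, and a candidate probe of Smc1a that was not a member had -0.28. Nipbl had 12 h differences of -0.50, -0.49 and -0.43 in its 3 member probes, which were back within 0.11 of 0 h at 24 h. Its other candidate probes were less uniform, with 12 h differences of -0.58, -0.23 and -0.003. At 24 h these probes had -0.35, 0.03 and 0.09, in the same order. Smc3 measured 8.66 and 8.49 at 0 h, 8.54 and 8.64 at 8 h, 8.09 and 8.46 at 12 h and 8.73 and 8.53 at 24 h. Its 12 h arrays differed by 0.37, with the first further below the other times than the second. Over all 18 candidate probes of 8 cohesin genes, a family picked after the values were seen, the median 12 h difference was -0.24 and 16 were below 0, but 6 of them were members. The 12 others had a median of -0.06, with 10 below 0. The probes of Stag1 and Pds5b were the 2 above 0.

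Other members of this class had their low point at 12 h as well, which the rule required of every probe. Phf3, which binds RNA polymerase II, measured 9.14 and 9.28 at 0 h, 9.12 and 9.24 at 8 h, 8.50 and 8.71 at 12 h and 9.09 and 9.32 at 24 h, and Hcfc1, a coregulator that recruits histone-modifying enzymes, measured 10.48 and 10.52 at 0 h, 10.50 and 10.43 at 8 h, 9.81 and 10.14 at 12 h and 10.64 and 10.31 at 24 h. Ep300, the p300 acetyltransferase, had a difference of -0.43 at 12 h and 0.02 at 24 h. Tet1, which oxidises methylcytosine and is abundant in ES cells, had -0.45 and -0.16. Tcf7l1, the repressor of Wnt targets in ES cells, had -0.33 and -0.01. Psip1, a reader of methylated histones, had -0.38 and -0.29 in its 2 probes at 12 h, and stood 0.06 and 0.05 above 0 h at 24 h. Taf1d, a subunit of the RNA polymerase I selectivity factor, had -0.62 and -0.52 in its 2 probes. Ankrd11, a chromatin cofactor, had the largest difference of the class, -0.70, with the widest gap between the 12 h arrays of any of the 88, 0.38.

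RNA processing, RNA decay and translation supplied 15 genes with 1 probe each. Their median difference was -0.52 at 12 h and -0.10 at 24 h. Srrm2, a large scaffold protein of nuclear speckles, measured 9.12 and 9.19 at 0 h, 9.05 and 9.06 at 8 h, 8.54 and 8.67 at 12 h and 9.07 and 9.04 at 24 h, and 9.31 and 9.32 at 8 h and 9.06 and 9.14 at 0 h in parental cells. Both 12 h arrays lay well below the other 10, which were close together in Tcf15-E47 cells. Smg1, the kinase that starts nonsense-mediated decay, measured 8.91 and 8.98 at 0 h, 8.86 and 8.92 at 8 h, 8.41 and 8.52 at 12 h and 8.93 and 9.08 at 24 h. Upf2, its partner in the same pathway, had -0.39 at 12 h. Outside the 88, both Upf1 probes were also low, -0.78 and -0.44 at 12 h, while Smg6 was 0.03. These decay factors were grouped after the values were seen.

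Zfc3h1, which directs nuclear polyadenylated RNA to the exosome, measured 8.85 and 8.88 at 0 h, 8.82 and 8.66 at 8 h, 8.34 and 8.30 at 12 h and 8.92 and 8.90 at 24 h, so its 24 h arrays were level with those of 0 h. Hnrnpdl, an RNA-binding protein, had the largest difference of this class with -0.73 and was -0.31 at 24 h. Its other candidate probes, outside the 88, had smaller 12 h differences of -0.34 and -0.22. Thrap3, a splicing and decay factor, measured 9.44 and 9.23 at 0 h, 9.32 and 9.48 at 8 h, 8.85 and 8.97 at 12 h and 9.48 and 9.45 at 24 h. One of its parental arrays at 0 h, 8.81, was below both of its 12 h arrays. Tnrc6a, the scaffold that Argonaute proteins use for silencing, had -0.49. Its other candidate probes, outside the 88, had -0.56 and -0.48, and those of Tnrc6c had -0.37 and -0.09. These 4 had a median of -0.42, and the family was grouped after the values were seen. Prrc2b and Prrc2c, large proteins of translation initiation, had -0.64 and -0.52. Impact, an inhibitor of the kinase Gcn2, had -0.56. Larp1, which controls translation of ribosomal protein messages, had -0.40. Of 70 candidate probes of genes with Rpl or Rps names, only that of Rps24 was among the 88. Probes of ribosomal protein genes can cross-react with near-identical copies.

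The 4 noncoding RNAs were the deepest class, with a median of -0.71 at 12 h and -0.39 at 24 h. Snhg16, a host of small nucleolar RNAs, measured 8.55 and 8.45 at 0 h, 8.37 and 8.33 at 8 h, 7.66 and 7.42 at 12 h and 7.86 and 7.93 at 24 h, and 8.20 and 8.01 at 8 h and 7.82 and 8.20 at 0 h in parental cells. Both of its 24 h arrays lay among the parental arrays and below its own 0 and 8 h arrays. Snhg5, also a small nucleolar RNA host, measured 8.92 and 8.82 at 0 h, 8.62 and 8.78 at 8 h, 8.19 and 8.19 at 12 h and 8.47 and 8.57 at 24 h. 2410006H16Rik had -0.75 at 12 h and -0.43 at 24 h. Mir17hg, the host transcript of the miR-17 cluster, measured 8.55 and 8.43 at 0 h, 8.38 and 8.32 at 8 h, 7.90 and 7.82 at 12 h and 8.15 and 8.29 at 24 h. Their RefSeq genes span only 1.85 to 4.14 kb, so the deepest class was also the one with the shortest genes. The other Snhg16 probe, outside the threshold with a score of -0.22, had a 12 h difference of -0.80, and Snhg12 and Snhg10 had -0.42 and -0.19.

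The remaining genes were of mixed function. Hspg2 encodes perlecan, a proteoglycan of basement membranes. Its probe with the lower score measured 9.61 and 9.48 at 0 h, 9.68 and 9.52 at 8 h, 8.62 and 8.74 at 12 h and 9.05 and 8.96 at 24 h, and 9.68 and 9.65 at 8 h and 9.75 and 9.47 at 0 h in parental cells. Both Hspg2 probes stayed below 0 h at 24 h, with differences of -0.54 and -0.49. The ubiquitin ligases Huwe1 and Ttc3 and the proteasome activator subunit Psme1 had 12 h differences of -0.48 to -0.39. The replication clamp loader Rfc1 had -0.55, and the checkpoint adaptor Clspn had -0.41 and -0.31. Mt2, a metallothionein, measured 8.47 and 8.06 at 0 h, 8.37 and 8.41 at 8 h, 7.83 and 8.13 at 12 h and 8.49 and 8.33 at 24 h, and its groups at 0 and 12 h overlapped. Gm5796 had -0.46.

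At 24 h some of the 88 probes were back at their 0 h level and others were part of the way. The rule already required a 24 h mean at least 0.27 above the 12 h mean, so some return was fixed by the choice. Relative to the 12 h low point, the median probe had regained 80.2% of the log2 difference at 24 h, with a range of 36.6 to 153%. With median scaling the median regained was 96.3%, the median difference of 24 h from 0 h was -0.015, and 46 rather than 65 probes were below 0 h. That scaling also moved the candidates, whose median at 24 h was 0.07, with 28.6% rather than 47.8% below 0 h. The median of the 88 minus that of candidates was -0.09 with median scaling and -0.11 as deposited. At least 90% was regained by 32 probes and under 50% by 10. Those 10 were both probes of Hspg2 and of Akap9 and single probes of Snhg16, Dst, 2410006H16Rik, Acot13, Snhg5 and Ankrd11. The largest returns were those of Mt2 at 153%, Mtcl1 at 140%, Thrap3 at 131% and Swap70 at 131 and 126%. At 24 h, 39 probes were within 0.1 of 0 h, 22 were more than 0.2 below and 4 were more than 0.1 above. Of all candidates, 55.6% were within 0.1 of 0 h at 24 h and 7.79% were more than 0.2 below it. The lowest group besides 12 h was 24 h for 54 probes, 8 h for 24 and 0 h for 10.

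**Figure D3:**
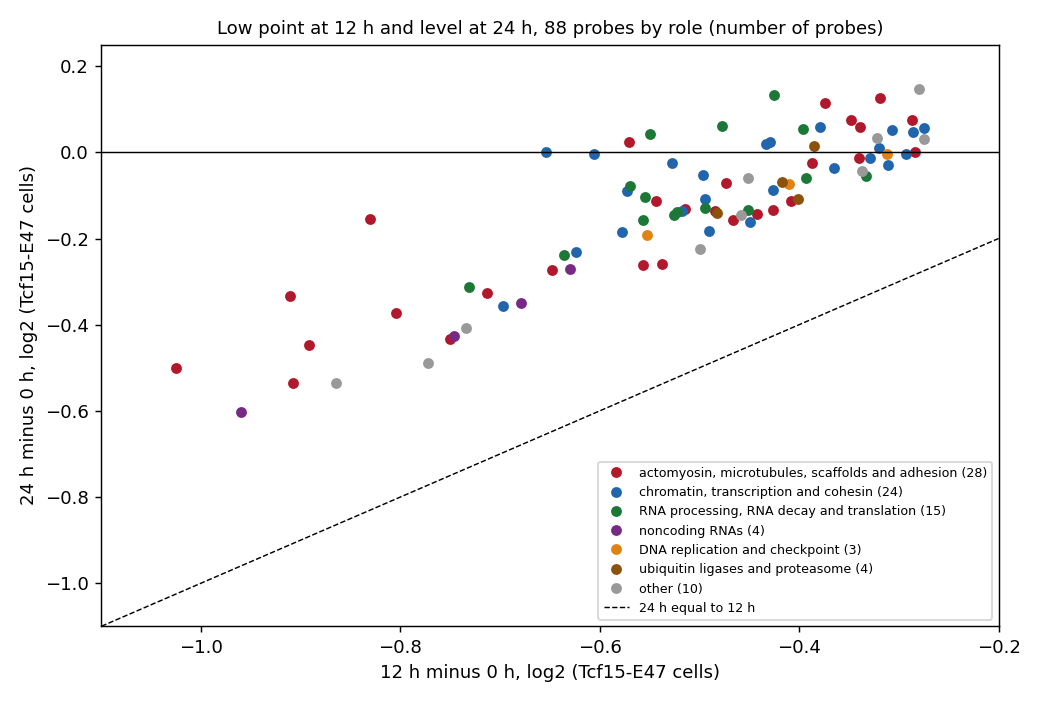
Each point is 1 of the 88 probes, coloured by class, with the 12 h minus 0 h difference on the x axis and the 24 h minus 0 h difference on the y axis, both log2. Points near the line at 0 had returned to their 0 h level, as for the chromatin class at a median of -0.03, and points nearer the dashed line had not, as for the noncoding RNAs at a median of -0.39.

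The 2 arrays at 12 h were both below all 6 other Tcf15-E47 arrays in 87 of the 88 probes, a pattern held by 10.6% of candidates and fixed in large part by the rule. Mt2 was the exception. Both were also below all 10 other arrays, parental ones included, in 79 of 88, against 7.44% of candidates. The 9 that were not were Thrap3, Taf1d, Wnk1, Huwe1, Larp1, Lima1, Ahctf1, Mt2 and Rrbp1, each with at least 1 array outside 12 h at or below its higher 12 h array. The first 12 h array was the lower of the pair in 61 of 88 probes. The median difference from the 0 h mean was -0.51 on the first and -0.42 on the second. The gap between them had a median of -0.07 in the 88 and 0.00 in candidates. The choice of probes moved with single arrays. Without the first 12 h array 68 of the 88 were chosen again, without the second 70, and without the first 24 h array 65.

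Parental cells gave the only test whose arrays did not choose the probes, apart from the minimum level. Between parental cells at 8 h and at 0 h of dox, limma called 1 of 9687 probes (0.0103%), a probe of Gm4832 with a difference of 0.49 ± 0.077 (SE, adjusted p = 0.0484), and 575 had an unadjusted p under 0.05 (5.94%). None of the 88 was called, with a smallest limma adjusted p of 0.633. Their median difference was 0.02, and 49 were higher at 8 h, against 48.7% of candidates. At an unadjusted p under 0.05 there were 11, and all 11 were higher at 8 h than at 0 h. The largest were Rrbp1, a ribosome-binding protein of the endoplasmic reticulum, with 0.35 ± 0.098, and Dst with 0.33 ± 0.094 (SE, n = 2 arrays each, limma adjusted p = 0.633 for both). Akap12, Sltm, Taf1d, Srrm2 and Myh9 were also in this set. With any 1 parental array left out, the one high in Acta2 included, such a set was no longer all higher at 8 h. Without the parental array high in Acta2, which leaves 1 array at 8 h, 45 of the 88 were higher at 8 h. Their median difference was then 0.01, against -0.0005 over all probes tested. Without the first parental array at 0 h, limma called 113 probes, 3 of them among the 88. These were Thrap3, 0.46 higher at 8 h, and Nipbl and Tet1, with differences of -0.46 and -0.41 (limma adjusted p of 0.0291, 0.0300 and 0.0334). In the authors' deposited table, no probe passed an adjusted p of 0.05 in this comparison, and the smallest among the 88 was 0.797. Parental cells at 12 and 24 h were not analysed here.

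Untreated Tcf15-E47 cells minus untreated parental cells had a median difference of 0.06, and 53 of 88 were higher in Tcf15-E47 cells, against 49.8% of candidates. Single probes differed by -0.49 to 0.51. Candidates had a median of -0.00. With median scaling the median of the 88 was 0.16 and 74 were higher, against 72.9% of candidates. The 12 h level was also below that of untreated parental cells for all 88 means, with a median of -0.43, against 46.4% of candidates below. At 24 h the difference from untreated parental cells was -0.07, with 53 below and 35 above, against 46.8% of candidates below. These 3 differences share the parental arrays at 0 h. The rule also took low means at 12 h against those at 0 and 24 h, so all 3 partly follow from the choice of probes.

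Lists of related genes are given with and without the probes of the 88, which were chosen for a low 12 h mean. Among giant linker and adaptor proteins of the cytoskeleton, 18 probes of 12 genes were candidates and 6 probes were among the 88. The 18 had a median 12 h difference of -0.24, and 17 were below 0, against a median of 0.01 and 46.0% below 0 over all candidates (26.8% with median scaling in place of quantile normalization). The 12 outside the 88 had a median of -0.18, with 11 below 0. Plec, another plakin, had -0.54 and -0.25 in its 2 probes, whereas vinculin (Vcl) had -0.02. Golgins had 11 probes with a median of -0.26, or -0.25 over the 9 outside the 88, and Golgb1 and Gcc2 had -0.57 and -0.47. Centrosome and spindle proteins had none of the 88, yet their 6 probes had a median of -0.41 at 12 h and -0.28 at 24 h. Pcnt, the pericentrin scaffold, had -0.54, Numa1 had -0.51, Cep152 had -0.45 and Cdk5rap2 had -0.38. The 24 h levels of these named genes stayed low enough to keep the score above the threshold. Aspm and Ckap5 had 12 h differences from 0 h of -0.267 and -0.248, already short of the last score taken, -0.274. Giant ubiquitin ligases and kinases of the PIKK family had 13 probes, all below 0, with a median of -0.14, which was also the median of the 11 outside the 88. Basement membrane genes had a median of -0.30 over 9 probes, including both of Hspg2, and of -0.06 over the 7 outside the 88. Lama1 had -0.63 at 12 h and -0.69 at 24 h, and Sparc was above 0 in both of its probes.

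Further lists had smaller medians at 12 h, except for the coactivators. Splicing factors had a median of -0.04 over 27 probes, nuclear pore and envelope genes -0.06 over 12, large translation factors -0.05 over 6 and short-lived transcripts -0.02 over 6. The next lists were taken by gene name. Names in Rpl or Rps, mostly cytosolic ribosomal proteins but also Rps6kl1, had -0.03 over 70. Names in Nduf, Cox, Uqcr or Atp5, respiratory chain subunits with assembly factors, had 0.01 over 104. Transcriptional coactivators had -0.20 over 5 probes, 1 of them Ep300, and -0.14 over the 4 others. None of 9 listed nuclear noncoding RNAs had a candidate probe. A-kinase anchoring proteins, grouped after the values were seen, had a median of -0.06 over 13 probes, 3 of them the probes of Akap9 and Akap12 described above, and of 0.01 over the 10 others.

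Other probes of the same genes gave a partial check on the array features. Of the 74 genes, 24 had 35 further candidate probes outside the 88. At 12 h, 34 of these 35 were below 0 h, with a median of -0.22, against 46.0% and 0.01 for all candidates. A score below 0 was found for 30, with a median score of -0.19. Among all 8660 candidates, a score of 0.004, that of a Thrap3 probe, stood at rank 2459. The 5 with a score of 0 or more were a probe each of Thrap3, Nipbl and Ahctf1 and 2 of Prrc2c. The 2 Prrc2c probes were lower at 24 h than at 12 h, with 24 h differences of -0.54 and -0.45. The cause of this disagreement between probes of 1 gene was not tested. A further 100 probes of the 74 genes were under the minimum level.

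Genes of the 88 probes were long. Gene span, the distance between the ends of a gene in the RefSeq annotation of GRCm38.p6, had a median of 70.6 kb over the 74 genes and 20.5 kb over 6346 candidate genes. Spans over 50 kb were found for 46 of the 74 (62.2%) and for 23.0% of candidate genes. The longest was Etl4 at 900.3 kb, followed by Dst at 401 kb and Mid1 at 306 kb, and the shortest was Mt2 at 0.95 kb. At most 10 kb was spanned by 10 genes, the 4 noncoding RNAs among them, with Psme1, Grina, Rps24, Hnrnpdl, Cirbp and Mt2. The share of candidate probes that were among the 88 was 0.617% for spans up to 5 kb, 0.248% for 5 to 10 kb, 0.213% for 10 to 20 kb, 0.74% for 20 to 50 kb, 2.43% for 50 to 100 kb, 3.87% for 100 to 200 kb and 1.92% over 200 kb, where the count was 4 of 208. The share was thus highest at 100 to 200 kb and lowest at 5 to 20 kb, and the shortest bin stood above the next 2.

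Over all candidates the 12 h difference also varied with span, at a much smaller size and not in the same order of bins. The median 12 h difference was 0.05 for spans up to 5 kb, 0.03, 0.04 and 0.01 in the next 3 bins, -0.02 for 50 to 100 kb, and -0.06 in both bins over 100 kb. At 24 h the medians of all bins lay between -0.02 and 0.02. Across 8654 candidate probes, which share the same arrays, Spearman's rho between span and the 12 h difference was -0.18, against 0.01 for the 24 h difference, -0.06 for the 8 h difference and -0.07 for parental cells at 8 h. Mean probe signal also moved with span, with a rho of -0.17, while the 88 probes had a median signal of 8.83 log2 units and candidates 8.19. The part of signal in the relation was not tested. Span includes introns and is not the length of the mature transcript, which was not analysed here.

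**Figure D4:**
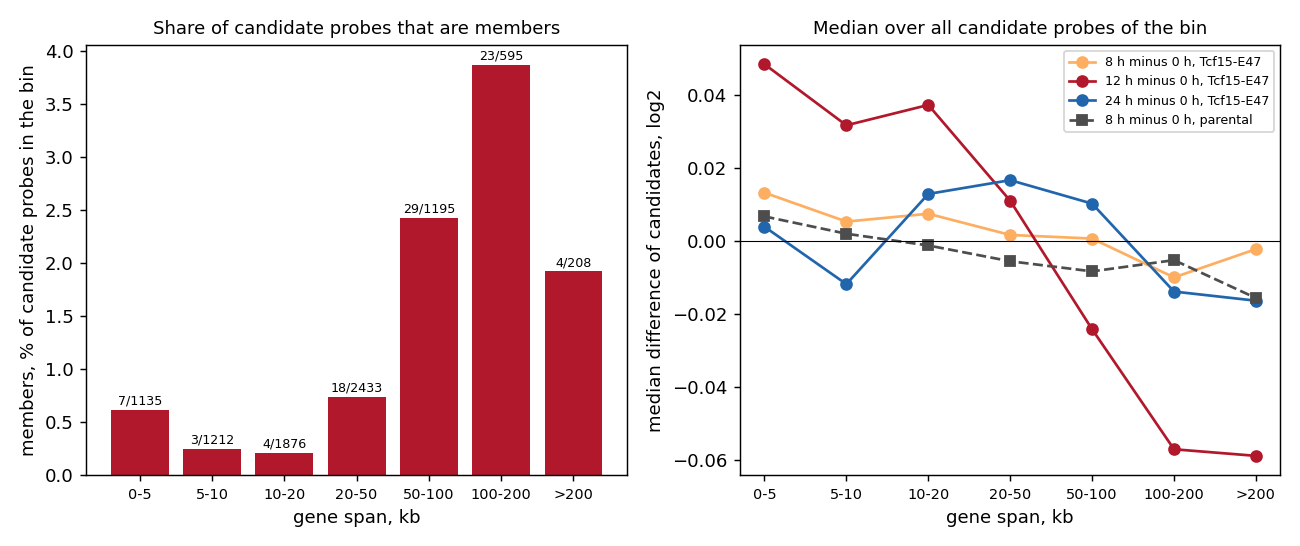
The left panel shows, for each bin of gene span in kb, the percentage of candidate probes that are among the 88, with the counts above the bars. The right panel shows the median log2 difference of all candidate probes of each bin, which declines with span at 12 h from 0.05 to -0.06 and stays within 0.02 of 0 at 8 and 24 h and in parental cells.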

How the data were processed

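Total RNA of 12 samples in 6 groups was measured on Illumina BeadChips. Biotin-labelled cRNA was amplified from kit-purified RNA, per the labels' protocols. The value table the authors deposited holds log2 values, which its columns show to be quantile normalized. The deposited non-normalized table holds the average bead signal intensity and, per the file headers, a detection p-value for each entry. Another deposited table gives the authors' own contrasts, as log2 fold changes with adjusted p-values from limma, per the submitters' processing notes.

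Members were selected on the deposited log2 values by the rule given above, with gene names from the platform annotation (32093 probes with 1 gene, 16 with several, 6452 with none). Members, lists and classes were chosen with earlier results of these data known. No entry name of the non-normalized table matched a probe, so signals were recovered by matching values (16917 of 30854 entries; in 8488 held-out entries the median miss was 9.39e-06 log2 units), and 167 probes brighter than any match were extrapolated. These signals served detection and 2 alternatives only: neqc (offset 16) and scaling to a common median.

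Parental cells were tested with limma 3.58.1 in R 4.3.3, fitted over all 12 arrays in 6 groups, two-sided, with Benjamini-Hochberg adjustment over the 9687 probes with a mean of at least 7.0. The fit was tested on simulated data. The number of arrays limits the precision. Same-numbered replicates were checked for pairing: correlations of their deviations from group means ran between -0.16 and 0.25, with 0.20, 0.23 and 0.25 among the Tcf15-E47 groups at 0, 8 and 24 h and -0.05 in the parental pair. Since not every correlation passed 0.1, the numbers were not taken to pair samples. Named genes were the 6 typical genes, the 30 lowest scores, 3 probes on each side of the threshold and up to 4 genes of each list. Members named otherwise, for an extreme value or to complete a class or family, were chosen after their values were seen. Alternatives were other normalizations, filters, floors and leaving out arrays. Promoters and gene spans come from RefSeq, GRCm38.p6, and no build is given in the sources used here for the arrays. Python 3.11.15 with pandas 2.3.3, scipy 1.17.1 and scikit-learn 1.9.0 was used.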

Additional observations from a re-analysis of the deposited data

How the results depend on the processing

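All 88 differences at 12 h were below 0 under the deposited values, under background-corrected signals and under median scaling. The rule fixed this sign for the deposited values. The other values come from the same arrays, so the shared sign is no independent check. Of candidates, 46.0%, 46.5% and 26.8% were below 0 at 12 h, in the same order. The median of the 88 was -0.48 as deposited, -0.60 with background correction and -0.39 with median scaling, which shifts the candidates themselves by 0.10. Leaving out 1 array gave -0.51 to -0.42. At 24 h the median was -0.11, against -0.015 with median scaling, where 46 rather than 65 were below 0 h. Median scaling put the candidates' own 24 h median at 0.07, with 28.6% rather than 47.8% below 0 h. Leaving out 1 array gave -0.132 to -0.072. The median from 12 to 24 h, 0.36, was 0.33 to 0.40 with 1 array left out, an alternative chosen after seeing the data. Untreated Tcf15-E47 minus untreated parental cells had 0.06, or 0.16 with median scaling, and 0.05 to 0.08 with 1 array left out. The rule chose 56 of the 88 again on background-corrected signals (63.6% of the 88 and 66.7% of the 84 it found), 68 with median scaling, 77 with a minimum of 8.0, all 88 with the exclusions applied first, and 65 to 86 with 1 array left out.

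The parental test called 1 probe, and 0 with background correction, median scaling, no filter, a lower minimum or the 4 parental arrays alone, and 0 to 113 with 1 array left out. Of the 88, it called 0 under these settings, except for 0 to 3 with 1 array left out. Replicate numbers were not taken to pair the samples. With replicate number as a block, the parental test called 0 probes and the 12 h median was -0.48, as without it. The cause of these changes was not tested. With 2 arrays a group, the 88 rest on 2 values at their low point, the 12 h arrays differ by up to 0.38 for single probes, and no array of parental cells covers that time.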

Other observations

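The 12 probes left out of the 100 lowest scores had the same shape by construction. They were those of Kif1a, Atf4, Kmt2a, Kmt2d, Lefty2, Arid1b, Chd2, Chd4, Kmt2c, Chd9, Fn1 and Setd2, with scores of -0.48 for Kif1a to -0.29 for Setd2. Of these, 8 encode histone methyltransferases or chromatin remodelling proteins. A further 1023 probes at the minimum level carried no gene name, and 27 of them had scores at or below that of the last probe taken, the lowest at -0.68, below that of Myh9. Their transcripts are not named here. On chromosomes, the 74 genes were spread over 19 autosomes and X, with 7 on chromosome 1, 7 on chromosome 4 and 6 on chromosome 7.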
